A study of Mus musculus and Miniopterus natalensis with 16 samples.

Results

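Hapln1, hyaluronan and proteoglycan link protein 1, was followed through a single array feature, probe M300002857, which is 1 of 12656 distinct features with values on 16 dual-colour arrays. The arrays compared autopods, the hand and foot plates, of the Natal long-fingered bat (Miniopterus natalensis) with a pool of forelimb autopods from 24 mouse embryos (ICR, E13.5). The bat groups were CS17 forelimb (FL), CS17 hindlimb (HL), CS16 FL and CS16 HL, with 4 arrays each, where CS numbers Carollia developmental stages and CS17 is the older. Each bat sample joined the left and right autopod of 1 embryo from a wild-caught female, and FL and HL with the same stage and replicate number were taken from the same embryo. The embryos were untreated, and the cut was made at the future wrist or ankle, so that the upper limb and the flank membranes were left out. Whole autopods were used, so fewer cells of a type and less RNA per cell cannot be told apart.

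Hapln1 is a secreted protein of the cartilage matrix. It holds together hyaluronan, a long sugar chain, and proteoglycans such as aggrecan, and these complexes give cartilage its swollen, load-bearing gel. In the developing autopod the cartilage models of the digits are laid down as mesenchyme condenses and turns to chondrocytes, and in mice loss of Hapln1 leaves cartilage disorganised and limbs short.

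The deposited table numbers its features and gives no gene names, so the name Hapln1 rests on a match of values. The study lists mean folds for named probes, among them M300002857 for Hapln1, in 3 comparisons: CS16 FL over HL, CS17 FL over HL and CS17 FL over mouse. The feature followed here was chosen by these folds: with 1.22, 1.64 and 3.13 it was the only feature whose 3 folds all lay within 0.05 of the listed ones. Row 7231's largest deviation from the listed folds was 0.044. The nearest feature outside that tolerance, number 16003, deviated by up to 0.17, with folds of 1.03, 1.48 and 3.22. The values of Hapln1 in those 3 comparisons are given as a description, with no test.

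The same match set the scale and sign of all values. Read as log2 and with the sign turned, 33 of the 35 listed probes had a matching feature, against 4 of 35 with the sign as deposited. The ratios are therefore read as log2 of bat over mouse after turning, so that positive values mean more signal from the bat. This direction is likely rather than certain, and it goes against the sample labels, whose wording makes the untouched values bat relative to mouse. By that wording every "higher" and "lower" here would change places. Bat RNA carried Cy3 and mouse RNA Cy5 on every array, the probes are mouse sequences, and the pool is 1 sample, so in a ratio to the mouse a difference in expression cannot be told apart from one of dye or of probe fit. Whether the arrays were centred is not stated, and their medians as deposited lay between 0.04 and 0.17.

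In the CS17 FL, Hapln1 stood at a log2 bat over mouse ratio of 1.5, 1.77, 1.62 and 1.71 in replicates 1 to 4. The CS17 HL gave 1.02, 1.10, 0.93 and 0.68. The lowest CS17 FL array thus lay above the highest CS17 HL array, and the HL of replicate 4 was the lowest of its group. The CS16 FL gave 0.36, 0.02, 0.24 and 0.40, close to the mouse pool. The CS16 HL gave -0.11, -0.12, 0.04 and 0.07, on either side of it. All 8 CS17 arrays lay above all 8 CS16 arrays, while the CS16 FL and HL overlapped.

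**Figure D1:**
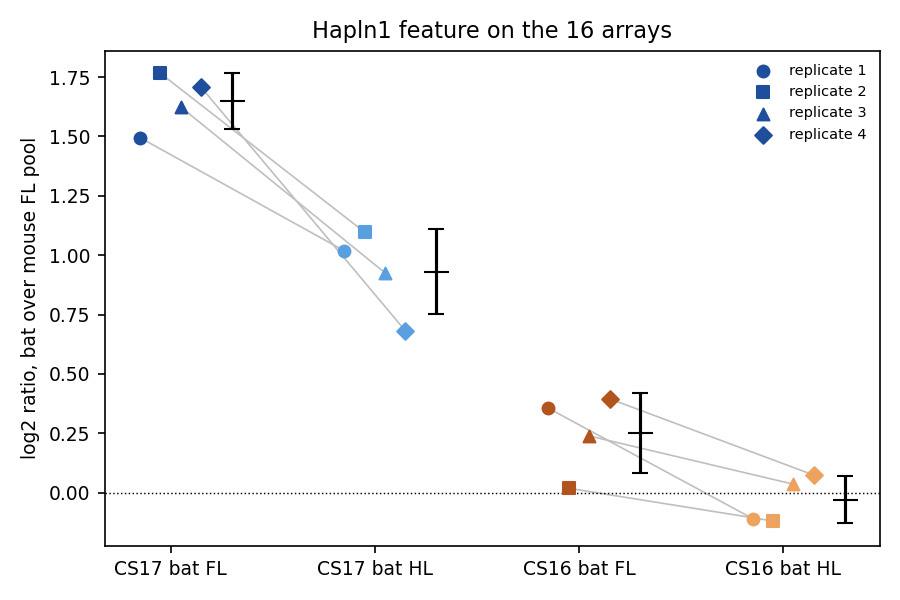
Log2 ratio of bat over the mouse FL pool for the Hapln1 feature on each array, by group along the x axis, with grey lines joining the FL and HL of an embryo and bars giving the mean and SD of 4 arrays. The CS17 FL arrays lie between 1.5 and 1.77 and the CS16 HL arrays between -0.12 and 0.07.

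The group means fell in the order CS17 FL, CS17 HL, CS16 FL and CS16 HL. They were 1.65 ± 0.12, 0.93 ± 0.18, 0.25 ± 0.17 and -0.03 ± 0.10 on the log2 scale (SD, n = 4 each). As folds of bat over mouse these means are 3.13, 1.91, 1.19 and 0.98. Neighbours in this order did not overlap, apart from the CS16 FL and CS16 HL, where CS16 FL replicate 2 (0.02) lay below CS16 HL replicates 3 and 4. Within groups the feature varied about as much as most. Its pooled SD was 0.15, against a median of 0.16 over all features, and 41.1% of features had a smaller one.

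Ranks within an array do not depend on how the array was centred. In the CS17 FL the Hapln1 ratio was higher than that of 95.75% to 98.02% of the features on the same array. In the CS17 HL it exceeded 87.14% to 92.49% of them. At CS16 it lay in the body of the distribution, where the FL arrays had 58.06% to 72.01% of features below it and the HL arrays 49.71% to 59.68%. These are ranks of ratios over different probes, and by the labels' wording the same shares of features would lie above Hapln1 in place of below it. The CS17 FL ratio also helped choose the feature.

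In both limbs Hapln1 was higher at CS17 than at CS16. Counted from the top, its CS17 minus CS16 difference was the first of all 12656 features in the FL and the third in the HL. By size in either direction it ranked 1 in the FL and 16 in the HL, where the features lower at CS17 reach further. In the FL the log2 difference was 1.40 ± 0.26 (SD, n = 4), a fold of 2.63. The pairs of a labelling batch gave 1.14, 1.75, 1.39 and 1.31 in replicates 1 to 4. The widest difference was that of replicate 2, where the CS17 FL was the highest of its group and the CS16 FL the lowest. The lowest CS17 FL array exceeded the highest CS16 FL array by 1.10.

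In the HL the CS17 minus CS16 difference was 0.96 ± 0.27 on the log2 scale (SD, n = 4), a fold of 1.95. The pairs gave 1.13, 1.22, 0.89 and 0.61, and again the groups did not overlap, with 0.61 between the lowest CS17 HL array and the highest CS16 HL array. The middle 95% of all features had stage differences between -0.33 and 0.33 in the FL and between -0.53 and 0.34 in the HL. Embryos of the 2 stages are different animals that share a batch number only. The choice of feature fixed both CS17 levels and left the CS16 level free, so the stage differences are likewise given with no test. Hapln1 kept the first place in the FL under each other setting tried, and in the HL its place from the top ran from 2 to 9. Median centring cannot change these places, because it shifts all features equally. Leaving out a CS17 HL array cannot change the place in the FL.

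**Figure D2:**
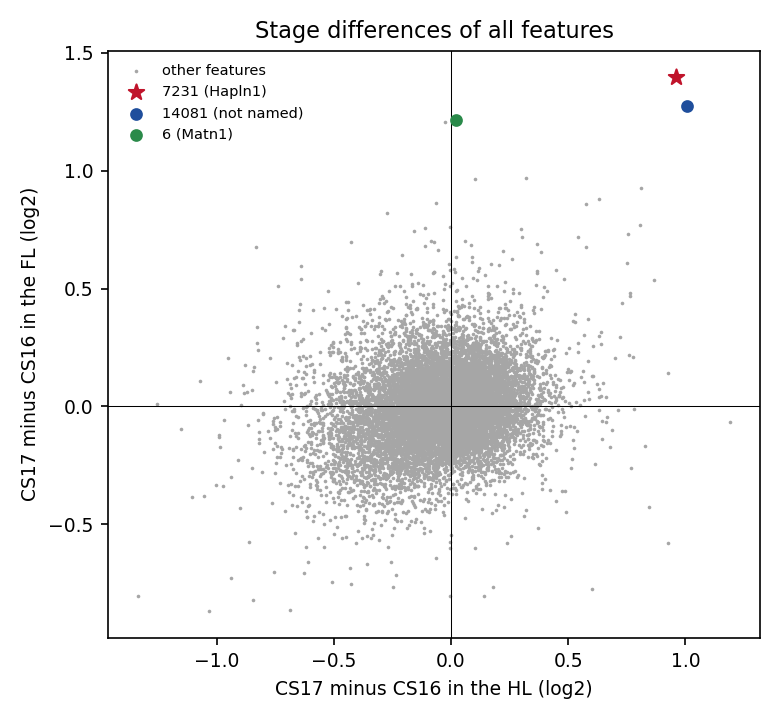
Each point is 1 of the 12656 features, with its CS17 minus CS16 log2 difference in the HL on the x axis and in the FL on the y axis. Hapln1 (star, 0.96 and 1.40) and feature 14081 (1.01 and 1.27) lie apart at the upper right, and Matn1 (0.02 and 1.22) is far from 0 in the FL alone.

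A CS17 minus CS16 log2 difference above 1 was found at 4 features for the FL and at 2 for the HL. A difference below -1 was found at 0 features for the FL and at 8 for the HL. The 4 higher at CS17 in the FL were Hapln1, feature 14081, Matn1 and Meis2, and the 2 higher in the HL were features 33770 and 14081. A difference of at least 0.9 in both limbs was found at 2 features, Hapln1 and feature 14081. A CS17 FL ratio above 1 on the log2 scale was common, with 1356 features. Of these, 2 had a CS16 FL ratio no higher than that of Hapln1. That cut lies at the value of Hapln1, which is therefore 1 of the 2 by construction. The other was feature 35283, with means of 1.17 in the CS17 FL and 0.20 in the CS16 FL. The features of these counts are named after their values were seen. Over the 16 arrays Hapln1 had the fifth largest variance of all features. Of its sum of squares 79.4% lay between the stages, 14.3% between the limbs, 2.7% in the change of the limb difference with stage and 3.6% within groups.

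The mean level of CS16 autopods, over both limbs, against the mouse pool is the measure that the choice of feature left free, and it was tested. The study takes the E13.5 mouse FL as equivalent in stage to CS17. The tested mean thus sets a younger bat stage, with HL as well as FL, against a mouse FL. Differences of species, stage and limb cannot be told apart in it. The mean of the CS16 FL and HL differed from the pool by 0.11 on the log2 scale (standard error 0.06, 95% confidence interval -0.02 to 0.24, adjusted p = 0.0987 from limma), which did not pass. The mean lay below a doubling and its adjusted p was not under 0.01, so Hapln1 was not called. The upper end of the interval also lay below a doubling. A fold above 2 with an adjusted p under 0.01 from limma was reached by 15.4% of features. The study set these cut-offs between species on q values of another statistic. An adjusted p under 0.05 alone was reached by 83%. The single limbs, at 0.25 in the CS16 FL and -0.03 in the CS16 HL, carry the CS16 limb difference that helped choose the feature, and so have no test. The CS16 FL was above the pool on 4 of 4 arrays and the CS16 HL on 2 of 4. These CS16 ratios share the mouse pool, the dyes and the probe with the CS17 FL ratio that helped choose the feature. With every array set to a median of 0, the CS16 mean was 0.20 with an adjusted p of 0.0029 from limma, so its side of an adjusted p of 0.05 depends on centring. Without replicate 2 it was 0.17 with an adjusted p of 0.0359 from limma.

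The CS17 ratios helped choose the feature and have no test. Over the 4 CS17 FL arrays the bat signal was 2.82-fold to 3.40-fold that of the mouse pool, and over the 4 CS17 HL arrays 1.60-fold to 2.14-fold.

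In every embryo the FL had more Hapln1 signal than the HL. At CS17 the FL minus HL difference was 0.48, 0.67, 0.70 and 1.03 on the log2 scale in embryos 1 to 4, with a mean of 0.72 ± 0.23 (SD, n = 4) and a fold of 1.64. The widest value belonged to embryo 4, whose HL array was the least like the other arrays of its group (mean r 0.908 across features). Its median as deposited, 0.17, was also the highest of all arrays. With every array set to a median of 0, the mean difference was 0.68 ± 0.16 (SD, n = 4). Without the HL array of embryo 4 the difference was 0.61, a fold of 1.53, and the CS17 HL mean was 1.01 ± 0.09 (SD, n = 3). Across features, correlations between any pair of arrays ran from 0.841 to 0.963.

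At CS16 the FL minus HL difference was 0.46, 0.14, 0.20 and 0.32 in embryos 1 to 4, with a mean of 0.28 ± 0.14 (SD, n = 4) and a fold of 1.22. The limb difference at CS17 exceeded that at CS16 by 0.44 ± 0.30 on the log2 scale (SD, n = 4). This change ranked 740 from the top among all features and lay inside their middle 95%, which ran from -0.40 to 0.58. Both limb differences helped choose the feature. Compared by replicate number, it was almost equal at both stages in replicate 1 (0.01) and wider at CS17 by 0.53, 0.50 and 0.70 in the others. Among all features the limb difference of Hapln1 ranked 25 from the top at CS17 and 378 at CS16. The middle 95% of all features lay between -0.26 and 0.42 at CS17 and between -0.31 and 0.30 at CS16. At an adjusted p under 0.05 from limma within embryos, 0.0079% of features differed between the limbs at CS17, which is 1 feature, and 0% at CS16. It was feature 24123, matched by its folds to Meis2, a homeodomain transcription factor, and it is named after its values were seen. With no adjustment a limma p under 0.05 was found at 1159 features (9.16%) at CS17 and 634 (5.01%) at CS16. The share at CS16 is about what a cut of 0.05 gives with no limb difference at all. It does not show that every feature was alike in the 2 limbs at CS16. The same 1 feature and 0 features passed when limits of 1.5 on the fold and 0.01 on the limma adjusted p were set. The study's methods put these limits on q values of another statistic, within a smaller filtered set of probes. By that statistic the study called more genes at both stages, Hapln1 among them at CS17. The statistic and the set of features both differ, so the counts here do not test those calls. The limb contrasts chose Hapln1, so no test of it is given.

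**Figure D3:**
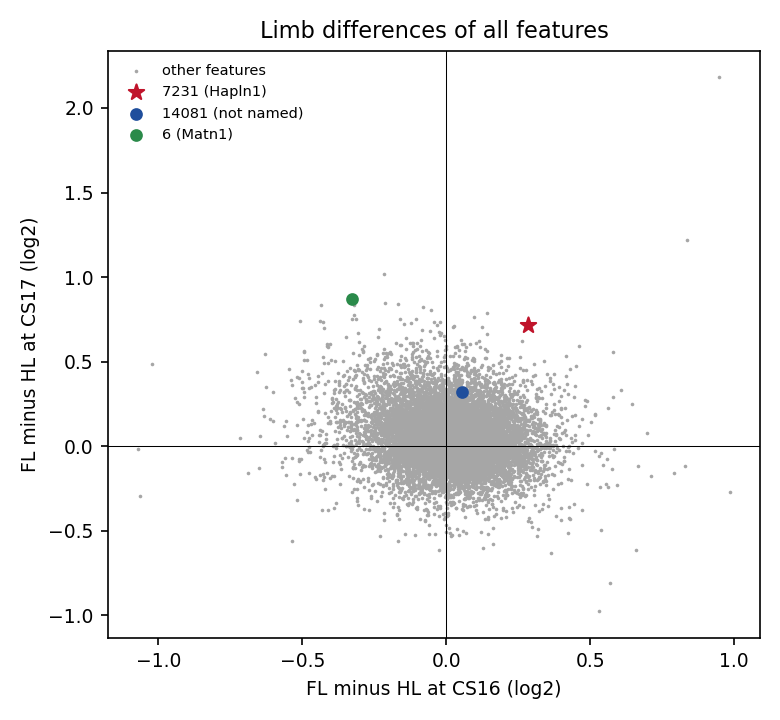
Each point is 1 of the 12656 features, with its FL minus HL log2 difference at CS16 on the x axis and at CS17 on the y axis. Hapln1 (star) lies at 0.28 and 0.72, with both limb differences above 0, and Matn1 at -0.33 and 0.87.

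The replicates carry a trace of earlier processing that bears on all these errors. The means of the 4 arrays of each labelling batch were 0.69, 0.69, 0.71 and 0.71 for Hapln1. Their SD was 0.012, where the spread within groups would give 0.073 without any batch effect. The values thus look already corrected for batch, as the study's methods describe, and how far this narrows the errors was not tested.

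Genes that act with Hapln1 could be followed only in part. Of 20 genes of hyaluronan and cartilage matrix biology listed for comparison, 1 had a feature through the same match of folds, Matn1. It encodes matrilin 1, an adaptor protein that links collagen fibrils and proteoglycans in cartilage. The defining markers of cartilage, epidermis, muscle, blood and endothelium were otherwise not analysed here, because features carry numbers only.

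Matn1 was matched by feature 6, again from the values that chose it. Its log2 bat over mouse ratio was 0.20, 0.99, 0.59 and 0.68 in the CS17 FL and -0.01, -0.14, -0.43 and -0.46 in the CS17 HL. In the CS16 FL it was -0.36, -1.20, -0.50 and -0.35, and in the CS16 HL -0.25, -0.24, -0.18 and -0.45. The CS17 FL stood above each of the other 3 groups with no overlap, and those 3 overlapped one another. In the FL the CS17 minus CS16 difference of Matn1 was 1.22, a fold of 2.33 and the third from the top after Hapln1 and feature 14081. Its HL showed 0.02, where Hapln1 had 0.96. Both cartilage matrix genes had a CS17 FL minus HL difference above 0 in 4 of 4 embryos, by 0.72 for Hapln1 and 0.87 for Matn1. The study's list holds both as higher in the CS17 FL than in the HL, so this shared direction was fixed by how they were found. At CS16 the limb difference of Matn1 was -0.33, with 1 of 4 embryos above 0, against 0.28 and 4 of 4 embryos for Hapln1. Replicate 2 gave -0.95 for Matn1, and without it the mean was -0.12. The difference between the 2 features was not tested.

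By Pearson correlation over the 16 arrays, the 5 features most like Hapln1 were 14081, 36761, 26116, 159 and 31381, with r of 0.93, 0.92, 0.88, 0.88 and 0.87. The median r over all features was 0.05, and 22 features had r above 0.8. The 16 arrays fall into 2 stages and 2 limbs and share the mouse pool and 4 labelling batches. The match of folds named 0 of the 5. With Spearman rho 3 of these 5 stayed among the first 5, and with group means removed 0 did. With group means removed, r was 0.36, 0.29, 0.40, 0.57 and 0.71 for the 5 in the order above.

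Feature 14081 was the closest to Hapln1. Its log2 bat over mouse ratio was 2.76, 2.74, 2.59 and 2.79 in the CS17 FL and 2.09, 2.55, 2.56 and 2.39 in the CS17 HL. In the CS16 FL it was 1.62, 1.19, 1.64 and 1.33, and in the CS16 HL 1.24, 1.16, 1.56 and 1.59. All CS17 arrays thus lay above all CS16 arrays, as for Hapln1, but each group stood above the mouse pool. Its CS17 minus CS16 difference in the FL was 1.27 and that in the HL 1.01, each the second from the top among all features. Its limb difference was 0.32 at CS17 and 0.06 at CS16, where that of Hapln1 was 0.72 and 0.28.

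The other 4 features had smaller stage differences. Feature 36761 followed Hapln1 most closely in its group means, which were 1.13, 0.78, 0.36 and -0.03 in the CS17 FL, CS17 HL, CS16 FL and CS16 HL. Between the stages it differed by 0.77 in the FL and by 0.81 in the HL. Features 26116, 159 and 31381 had stage differences of 0.66, 0.54 and 0.36 in the FL and of 0.38, 0.48 and 0.28 in the HL. In the FL all 5 features were higher at CS17 in 4 of 4 batches, and in the HL this held for 4 of the 5, with 3 of 4 batches for feature 31381.

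**Figure D4:**
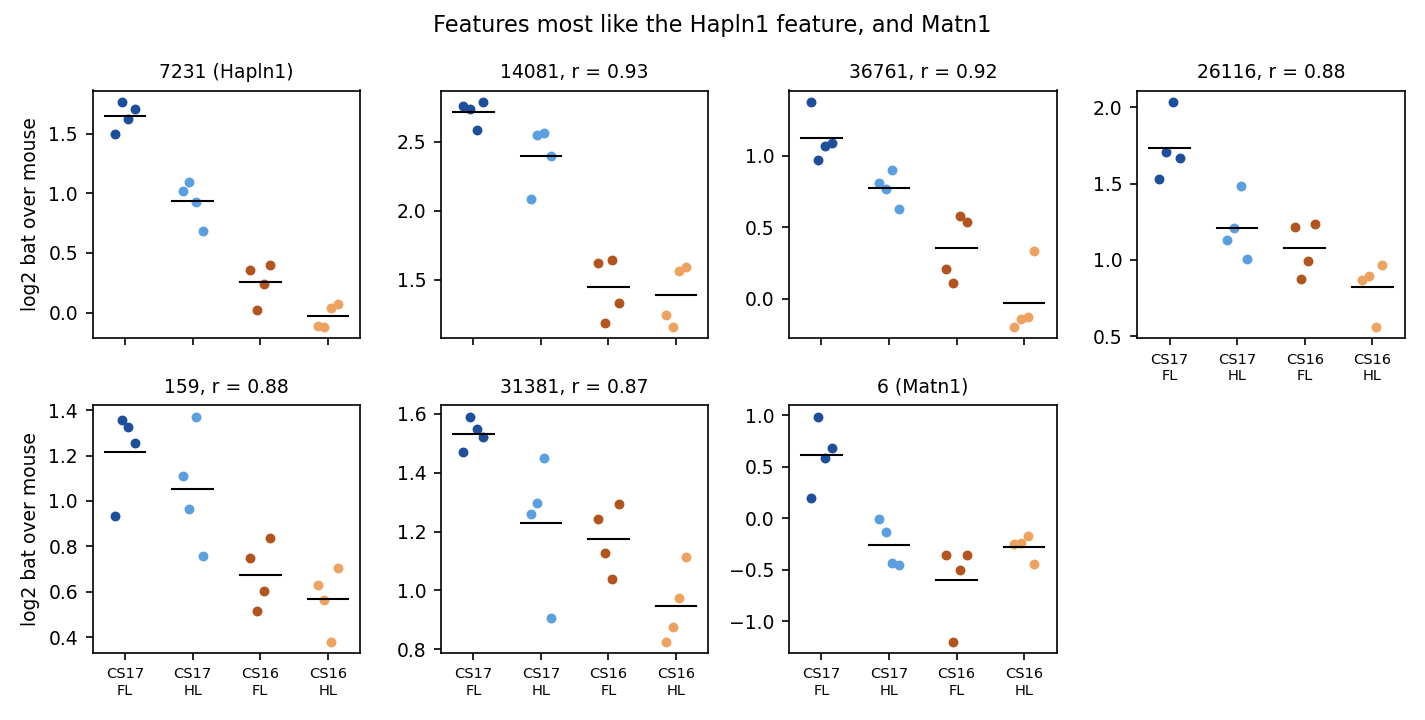
Log2 ratio of bat over mouse on the 16 arrays for Hapln1, the 5 features with the highest Pearson r with it (given above each panel) and Matn1, each on its own y scale, with dots for arrays and lines for group means. In Hapln1 and in the 5 like features both CS17 means lie above both CS16 means, while for Matn1 the CS17 FL mean (0.61) alone is above 0.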

How the data were processed

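The authors scanned the slides, captured spots in GenePix, and corrected background and normalised in R. Features of low quality were dropped, missing values imputed, batches corrected and features filtered on variance, by their methods. The deposited values are read here as log2 ratios of both channels, 1 column per array, with base, direction and centring not stated. Values were present for 13988 of 37440 features (37.4%), and 1382 of them fell into 50 sets of identical values, counted once each. Apart from the sign, ratios were used as deposited. No scanner files were used, and precision is limited by the number of arrays.

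The fits were made in R 4.3.3 with lmFit and eBayes of limma 3.58.1, with Benjamini-Hochberg adjustment over all 12656 features. CS16 ratios to the mouse were fitted on 16 arrays with labelling batch as a term (9 residual and 5.6 prior degrees of freedom), and limbs were compared within embryos. The fits of the single limbs at CS16 were not used as tests, because the CS16 limb difference helped choose the feature. Steps were tested on simulated data with independent noise on each array. That noise lacks the trace of batch correction in these arrays, so it does not show how the fits behave with it. Replicate numbers pair samples because the labels tie them to labelling batches and the study to embryos. Correlations of paired deviations lay between -0.55 and 0.08, which a batch correction can itself set. Other steps ran in Python 3.11.15 (pandas 2.3.3, numpy 2.4.6, matplotlib 3.10.9).

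The feature, lists and tests were chosen with earlier results of these data known. Named features were Hapln1, the 5 with the highest Pearson r and Matn1. Other features are named by number where a count or order includes them. Feature sequences and positions were not analysed here. Alternatives were no replicate block, only the CS16 arrays, median centring, quantile normalization, every row as a feature, robust moderation, the 5200 most variable features, another threshold and each replicate left out. Leaving out CS17 HL replicate 4, and each replicate for Matn1, was chosen after seeing the data.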

Additional observations from a re-analysis of the deposited data

How the results depend on the processing

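The 6 described values of Hapln1 (both limb differences, both stage differences and both CS17 ratios to the mouse) kept their direction and moved by less than 1 SD under median centring, under quantile normalization and without any replicate. Leaving out replicates gave 0.61 to 0.80 for CS17 FL minus HL, 0.22 to 0.33 for CS16 FL minus HL, 1.28 to 1.48 for the stage difference in the FL and 0.88 to 1.08 in the HL. The CS16 ratios to the mouse lay near 0 and depended more on the setting. The CS16 mean was 0.20 after median centring and 0.070 to 0.17 without single replicates. The single limbs at CS16 are described with no call. The CS16 FL was 0.25 among the 5200 most variable features and 0.20 to 0.33 without single replicates. The CS16 HL changed sign to 0.078 after median centring and lay between -0.064 and 0.0001 without single replicates, the last of these without replicate 2. With no replicate block the CS16 mean was 0.11 with an adjusted p of 0.0553 from limma, so the block changed no call of Hapln1.

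Against the mouse at CS16, 1953 features were called, and 10507 when the adjusted p had to be under 0.05 whatever the fold. Median centring moved the split from 1494 higher and 459 lower to 1677 higher and 318 lower. Between the limbs at CS17, 1 feature was called, 13 with no replicate block, 32 among the 5200 most variable features and 1 to 3 without single replicates. At CS16 the counts were 0, and 8 among the 5200 most variable features. Of the 5 features most like Hapln1, 3 were shared under Spearman rho and 0 with group means removed. The causes were not tested.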
